A study of Mus musculus with 12 samples.

Results

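CREB sites called only in fasted liver are the peaks that the fasted list of this ChIP-seq study names and the re-fed list does not. They numbered 2190 of 7547 merged sites, 29.0% (Wilson 95% interval 28.0% to 30.1%), beside 4645 sites called in both conditions and 712 called only in re-fed liver. Whole livers came from male C57BL/6J mice aged 8 to 12 weeks, 5 per group, all of which had fasted for 24 hours. The fasted group was taken at zeitgeber time 3, and the re-fed group at zeitgeber time 5, after 2 hours with food. Feeding and time of day therefore cannot be told apart, and neither can the cell types of the liver. The antibody was raised against CREB-1 and binds CREB whether or not it is phosphorylated. One library each of GR and CEBPB, from animals fed ad libitum at zeitgeber time 10, was not analysed here. The lists were called on the pooled reads of a group and give 1 height per site, the tallest stack of extended reads within it, in reads per 1000000 reads (RPM) of the fasted pool. No value of a single mouse was used and no difference between conditions was tested here, and every interval below covers counting error only.

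CREB is a leucine zipper factor that binds the cAMP-response element (CRE), a palindrome, or a single arm of it. In the fasting liver, glucagon raises cAMP, protein kinase A phosphorylates CREB, and phosphorylated CREB recruits coactivators to genes of glucose production and other metabolic programs. CREB sites in many tissues lie close to gene starts, often in GC-rich promoters.

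Most promoters with a fasted-only site did not carry the letters of the CRE. The Full CRE was searched as TGACGTCA, exactly or with at most 1 mismatch, and the CRE arm as TGACG or its reverse complement CGTCA, in RefSeq promoters of GRCm38.p6 that run from 250 bases before to 50 bases after the start. The exact Full CRE contains the CRE arm on both strands, and a copy with 1 mismatch contains it unless one of the central bases changed. Promoters were matched to sites by gene symbol, so a site's distance, taken from starts in mm8, and a motif's distance refer to starts that may differ between the builds. Below are the promoter of Hjurp, whose site was the highest of the fasted-only sites at a start on chromosomes 1 to 3, the chromosomes with positions here, those of Lcmt2, Etnk2 and 9230116N13Rik, which hold CRE letters, and that of Ndufa10, whose start carries the best-ranked matched site called in both conditions. Capitals mark every CRE arm and every Full CRE with at most 1 mismatch, on either strand, and each sequence is written 5′ to 3′ on the strand of its gene.
Hjurp: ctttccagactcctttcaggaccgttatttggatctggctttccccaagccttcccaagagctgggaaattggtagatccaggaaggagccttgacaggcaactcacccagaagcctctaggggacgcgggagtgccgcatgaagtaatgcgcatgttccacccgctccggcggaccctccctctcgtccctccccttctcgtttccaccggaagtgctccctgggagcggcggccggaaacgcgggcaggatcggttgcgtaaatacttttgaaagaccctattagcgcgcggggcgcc
Lcmt2: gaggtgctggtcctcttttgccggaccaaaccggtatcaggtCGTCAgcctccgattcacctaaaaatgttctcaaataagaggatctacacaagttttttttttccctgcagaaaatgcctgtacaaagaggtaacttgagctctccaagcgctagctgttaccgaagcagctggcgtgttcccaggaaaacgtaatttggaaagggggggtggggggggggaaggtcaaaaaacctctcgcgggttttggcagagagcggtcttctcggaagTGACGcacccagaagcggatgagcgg
Etnk2: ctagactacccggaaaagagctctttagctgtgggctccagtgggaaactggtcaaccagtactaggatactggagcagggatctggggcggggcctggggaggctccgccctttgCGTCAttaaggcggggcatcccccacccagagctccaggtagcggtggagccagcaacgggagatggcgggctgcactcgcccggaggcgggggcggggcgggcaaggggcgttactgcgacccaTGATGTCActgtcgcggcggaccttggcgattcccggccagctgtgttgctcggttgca
9230116N13Rik: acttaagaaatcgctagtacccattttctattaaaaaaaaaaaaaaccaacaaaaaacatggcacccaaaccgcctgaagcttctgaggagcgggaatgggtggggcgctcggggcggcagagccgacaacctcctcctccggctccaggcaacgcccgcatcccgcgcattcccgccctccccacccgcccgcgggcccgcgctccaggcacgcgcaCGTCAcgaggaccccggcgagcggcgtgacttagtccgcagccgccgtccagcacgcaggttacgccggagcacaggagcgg
Ndufa10: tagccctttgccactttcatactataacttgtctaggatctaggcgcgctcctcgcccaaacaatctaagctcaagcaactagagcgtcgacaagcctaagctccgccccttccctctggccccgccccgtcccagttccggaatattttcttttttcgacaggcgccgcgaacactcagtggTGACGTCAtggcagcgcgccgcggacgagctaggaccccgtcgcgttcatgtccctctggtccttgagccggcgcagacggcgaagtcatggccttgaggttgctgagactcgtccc

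The Hjurp promoter (chr1:88277530-88277829, minus strand), of the chaperone that loads the centromeric histone, has no capitals at all. Its fasted-only site (mm8 chr1:90108737-90108847) reached 1.82 RPM, 77 reads, with the centre 41 bp upstream of the start. Lcmt2, an enzyme of transfer RNA modification (chr2:121140649-121140948, minus strand), has CRE arms that begin 208 bases before and 24 bases after the start. Its site (mm8 chr2:120832072-120832182) reached 1.25 RPM, 53 reads, with the centre 13 bp downstream. Etnk2, a kinase of ethanolamine (chr1:133363322-133363621, plus strand), holds a CRE arm that begins 134 bases before the start and a Full CRE with 1 mismatch that begins 9 bases before it. Its site (mm8 chr1:135190939-135191049) stood at 0.921 RPM, 39 reads, centred 124 bp upstream. The 9230116N13Rik promoter (chr1:136415470-136415769, minus strand) has 1 CRE arm, 32 bases upstream. Its site (mm8 chr1:138231894-138232004) reached 0.873 RPM, 37 reads, centred 18 bp upstream. Here too a better-ranked shared site was near, centred 282 bp from it. Ndufa10, a subunit of mitochondrial complex I (chr1:92473709-92474008, minus strand), holds an exact Full CRE that begins 67 bases before the start, under a shared site (mm8 chr1:94304167-94304277) of 9.51 RPM, 403 reads. Of the 8 promoters taken by the rule for sequences, the other 4, of Gabpb2, Pomt1, Csrp2bp and Pet117, hold no match, and the last pair shares a single site.

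Across the matched genes of chromosomes 1 to 3, the CRE arm occurred in 42 of 151 promoters whose sites at the start were fasted-only, 27.8% (Wilson 95% interval 21.3% to 35.4%). It occurred in 282 of 394 promoters with a shared site and no fasted-only one, 71.6% (66.9% to 75.8%), and in 20.6% of 22862 mouse promoters of the same length on all chromosomes. The exact Full CRE was found in 0 of the 151 promoters, which allows a share of up to 2.48%, against 10.2% of the promoters with a shared site and 1.85% of all promoters. With 1 mismatch allowed the shares were 6.62% (3.64% to 11.8%), 32.0% and 13.1%. Among sites ranked 1 to 4000 of 7547 by the average of fasted and re-fed height, the CRE arm was in 33.3% of 15 promoters with fasted-only sites (15.2% to 58.3%) and in 78.8% of 316 with shared sites (74.0% to 82.9%). Among those ranked 4001 to 7547, it was in 27.2% of 136 promoters with fasted-only sites (20.4% to 35.2%) and in 42.3% of 78 with shared sites (32.0% to 53.4%). The exact Full CRE was in 0 promoters of either kind in this range, and the form with 1 mismatch was in 7.35% and 7.69%. A promoter without a match shows only that the letters are not in its 300 bases.

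Fasted-only sites were low. The members were chosen by peak calls made on the same reads as the heights, so the levels that follow describe the choice and support no comparison. Fasted height had a median of 0.567 RPM, or 24 reads, with quartiles of 0.496 and 0.661 RPM and a range of 0.378 to 3.21 RPM, 16 to 136 reads. In all, 1522 members (69.5%) held 20 to 29 reads, 253 held fewer, and 65 (2.97%) reached 1 RPM. Shared sites had a median of 0.991 RPM, and sites called only in re-fed liver had a median fasted height of 0.401 RPM. Every fasted-only peak was 111 bp wide, every re-fed-only peak 109 bp, and the shared ones 111 to 219 bp. Fasted heights of members and of re-fed-only sites overlapped. At the lower edge, 11 members were called with 16 reads, while 491 of the 712 re-fed-only sites (69.0%) had at least that fasted height and 118 (16.6%) had at least the members' median, up to 3.80 RPM. The lowest members by the naming rule, each at 0.378 RPM, lay at the Fndc3b promoter (chr3:27902383-27902493) and at chr19:41399945-41400055 and chr6:126517746-126517856.

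**Figure D1:**
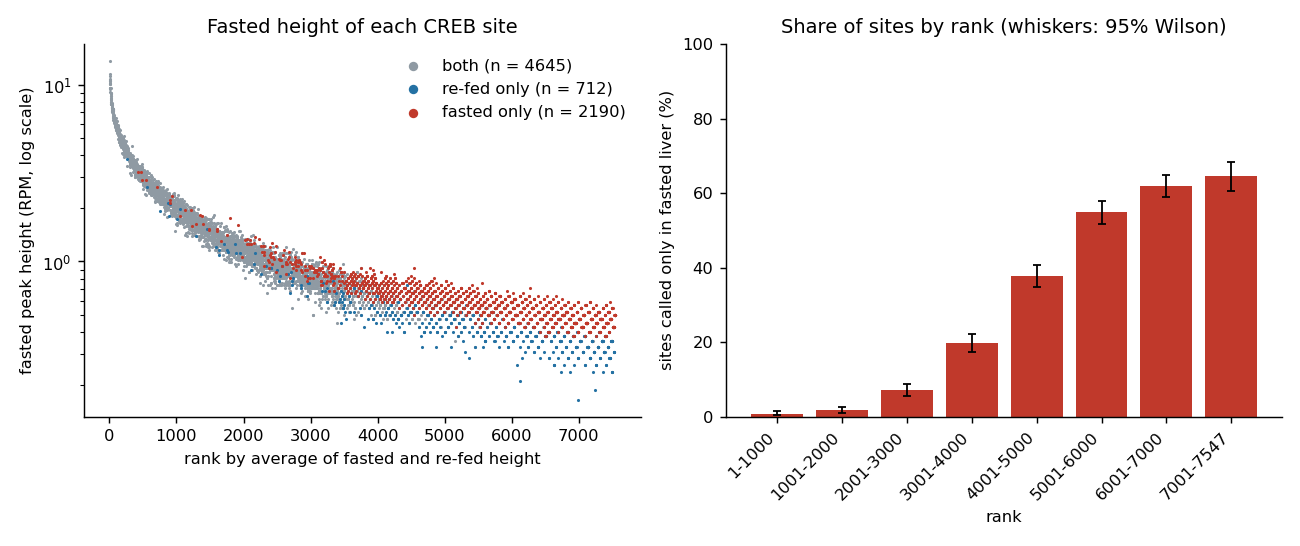
Left, fasted peak height (RPM, log scale) of each merged site against its rank, with 4645 sites called in both conditions in grey, 712 re-fed-only in blue and 2190 fasted-only in red. Right, the percentage of sites in each bin of ranks that were fasted-only, with 95% Wilson intervals, rising from 0.800% in the first 1000 ranks to 64.5% in the last 547.

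The share of fasted-only sites climbed steadily down the ranking, as the plot of height against rank shows. It was 0.800% among the first 1000 ranks, 7.10% at ranks 2001 to 3000, 37.7% at 4001 to 5000, 54.8% at 5001 to 6000 and 64.5% (60.4% to 68.4%) at 7001 to 7547. Only 3 of the 500 best-ranked sites were members, and the median member ranked 5805.5. Within a band of ranks the members stood above the shared sites on the fasted axis, for example 0.661 against 0.590 RPM in median at ranks 4001 to 5000. Compared with the median of shared sites within 50 ranks, the fasted height of a member differed by 0.0708 RPM in median, 3 reads. It was above that median at 1863 members (85.1%), equal at 180 and below at 147. This lean is built into the choice of members, which asked for a fasted call and no re-fed call. Re-fed-only sites showed the mirror image, with a median difference of -0.0708 RPM and 84.1% below the shared median. Equal rank means equal average height, so a higher fasted height at one rank goes with a re-fed height lower by about as much. At 263 members, in the lowest ranks, fewer than 10 shared sites stood within 50 ranks.

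The rank also bounds the re-fed height from below. A site's average is at least that of every site ranked after it, and at least 0.35 RPM, the minimum kept by the study, so the re-fed height cannot fall under what this average requires. This arithmetic takes the rank as the order of the average of the pooled heights. The paper instead normalized heights within each replicate before averaging them, so the limits below are approximate. By this arithmetic, 2165 of 2190 fasted-only sites, 98.9% (98.3% to 99.2%), had a re-fed height above 0. A height above 0 takes only 1 re-fed read, so it does not by itself show CREB there. The bound was above 0 at 98.3% of shared and 100% of re-fed-only sites. The lowest possible re-fed height had a median of 0.189 RPM, with quartiles of 0.142 and 0.228 RPM and a maximum of 0.685 RPM. It came to 32.0% of the fasted height in median. By these approximate limits, the fasted height was at most 3 times the re-fed height at 1039 members (47.4%) and at most 2 times at 304 (13.9%). At the lowest members the bound was tight, since at Fndc3b the re-fed height was at least 0.322 RPM, 85.3% of the fasted height. These are limits, and they do not give the actual re-fed height, which may lie anywhere above them. The paper's own test between conditions, not repeated here, lists a few members as higher in fasted liver, among them those at Mt1 and Hdlbp.

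**Figure D2:**
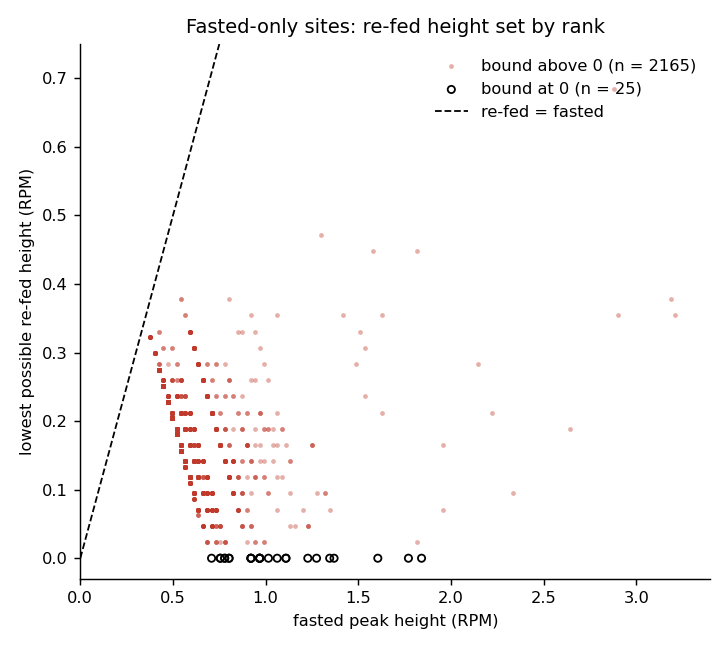
Lowest possible re-fed height (RPM) against fasted height (RPM) for each fasted-only site, with the 2165 sites whose bound is above 0 in red, the 25 at 0 as open circles and equality as a dashed line. All points lie under the dashed line, and the open circles run from 0.708 to 1.84 RPM of fasted height.

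For 25 members (1.14%) the ranking set no bound above 0, and all 10 members with the largest fasted excess were among them. The largest, 0.543 RPM or 23 reads, was at chr4:49581043-49581153, with 1.77 RPM against 1.23 RPM at shared sites of like rank. Next came an intragenic site of Hdlbp, which encodes the RNA-binding protein vigilin, at chr1:95276058-95276168, with 1.61 against 1.20 RPM. A shared site lay 410 bp from it. The site at the start of Tsga10 and Lipt1 (chr1:37809562-37809672), genes of a testis protein and of an enzyme of lipoate transfer, stood at 1.37 against 1.09 RPM. At Rab33b, a small GTPase of the Golgi, the intragenic site (chr3:51572133-51572243) stood at 1.23 against 0.921 RPM, and a re-fed-only peak was centred 154 bp away. The remaining 6 of these 10 lay at chr7:16141534-16141644, chr10:41965118-41965228, chr8:129400846-129400956, chr9:107196457-107196567, chr13:65256791-65256901 and chr7:24593299-24593409, with heights of 0.921 to 1.35 RPM. Among the 25 sites without a bound were also Tsc1, a growth inhibitor upstream of mTOR, whose promoter site (chr2:28462896-28463006) had 32 reads, and Mt1.

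The best-ranked members stood far above the rest in level. The first was on chromosome Y (chrY:1341772-1341882), at rank 423 and 3.19 RPM. The second was the highest of all members, at Acacb (chr5:114434075-114434185), the mitochondrial acetyl-CoA carboxylase that makes the inhibitor of fatty acid import, with 3.21 RPM, 136 reads. The fifth was at Fgf21 (chr7:45491699-45491809), a hormone the liver releases in fasting, with 2.64 RPM, 112 reads. Both genes are listed as induced by fasting. These heights differed little from shared sites of like rank, which had medians of 3.26, 3.14 and 2.45 RPM for the 3 sites. Hjurp, shown above, was the ninth in rank. The remaining 6 of the 10 best-ranked members lay at chr18:85850555-85850665, chrX:165341248-165341358, chr8:20439169-20439279, chr5:52943356-52943466, chr5:131804406-131804516 and chr11:118106346-118106456, with heights of 1.96 to 2.90 RPM.

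Some fasted-only sites lay beside another CREB site. Another merged site was centred within 1000 bp of 363 members, 16.6% (15.1% to 18.2%), against 11.0% (10.1% to 11.9%) of shared and 22.9% (20.0% to 26.1%) of re-fed-only sites. The nearest site was shared in 181 of the 363, fasted-only in 95 and re-fed-only in 87. Where a shared site was the nearest within 500 bp, at 118 members, the shared site had the higher fasted height in 94, the member in 18, and in 6 they were equal, with medians of 0.932 and 0.614 RPM. In 42 members (1.92%) a re-fed-only peak was centred within 200 bp without overlapping the fasted-only one, at a median of 132 bp and as close as 110 bp. No shared site came closer than 217 bp to any other, and no member had another member or a shared site within 200 bp. Sites of one list did not lie this close, so only a re-fed-only peak could be that near to a member. The 42 are therefore not a trait that sets members apart from shared sites. All reads given here, also those at re-fed-only peaks, are of the fasted pool. At Thrap3, a nuclear protein of transcription and splicing, the fasted-only peak (chr4:125705000-125705110) had 56 reads. The re-fed-only peak 11 bp beyond its edge had 47. At Etnk2 the values were 39 and 21 reads. Arrdc4, an arrestin-related regulator of glucose uptake, has a re-fed-only peak of 17 fasted-pool reads between a fasted-only peak of 19 reads and another of 21. At such places a fasted-only name marks a peak position, and CREB was called in both conditions at centres less than 200 bp apart. Widening the distance, 199 members (9.09%) had a peak of the re-fed list within 500 bp, 272 (12.4%) within 1000 bp and 1507 (68.8%) within 100000 bp.

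Chromosomes held like shares of fasted-only sites. The share ran from 18.9% on chromosome X (12.9% to 26.7%) to 32.6% on chromosome 16 (27.0% to 38.8%), with 5 of 11 sites on chromosome Y. On 20 of the 21 chromosomes the interval held the 29.0% of all sites, and chromosome X lay below it.

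Position relative to genes did not enter the calls. It was read from the study's gene sheet, whose copy is complete for chromosomes 1 to 3, where 383 of 1292 sites (29.6%) were fasted-only. A promoter, from 2000 bp upstream to 200 bp downstream of a start, held 239 of the 383, 62.4% (57.5% to 67.1%). Another 74 (19.3%) were in gene bodies, 15 (3.92%) lay up to 10000 bp upstream, and 55 (14.4%) had no listed gene. Shared sites were at promoters in 73.0% of 797 (69.8% to 76.0%) and re-fed-only sites in 55.4% of 112 (46.1% to 64.2%). Within bands of rank the difference was not uniform. Promoters held 1 of 3 fasted-only sites and 83.5% of shared sites at ranks 1 to 2000, and 65.0% (49.5% to 77.9%) and 68.8% (63.3% to 73.8%) at ranks 2001 to 4000. At ranks 4001 to 5000, promoters held 74.6% of fasted-only sites (63.1% to 83.5%) and 64.4% of shared sites (54.2% to 73.6%). At ranks 5001 to 6000 the shares were 65.6% (55.7% to 74.4%) and 58.3% (44.3% to 71.2%). At ranks 6001 to 7547 they were 55.9% (48.6% to 63.0%) and 57.1% (42.2% to 70.9%), and the intervals overlapped in every band. Members at promoters were centred 43 bp upstream of the start in median and shared sites 48 bp upstream, and 64.9% and 71.3% of them lay within 100 bp of it. Promoters that face each other on both strands took 9.92% of members and 10.9% of shared sites. Median fasted height was 0.567 RPM for the members at promoters and 0.543 RPM for those in gene bodies, upstream or without a gene.

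**Figure D3:**
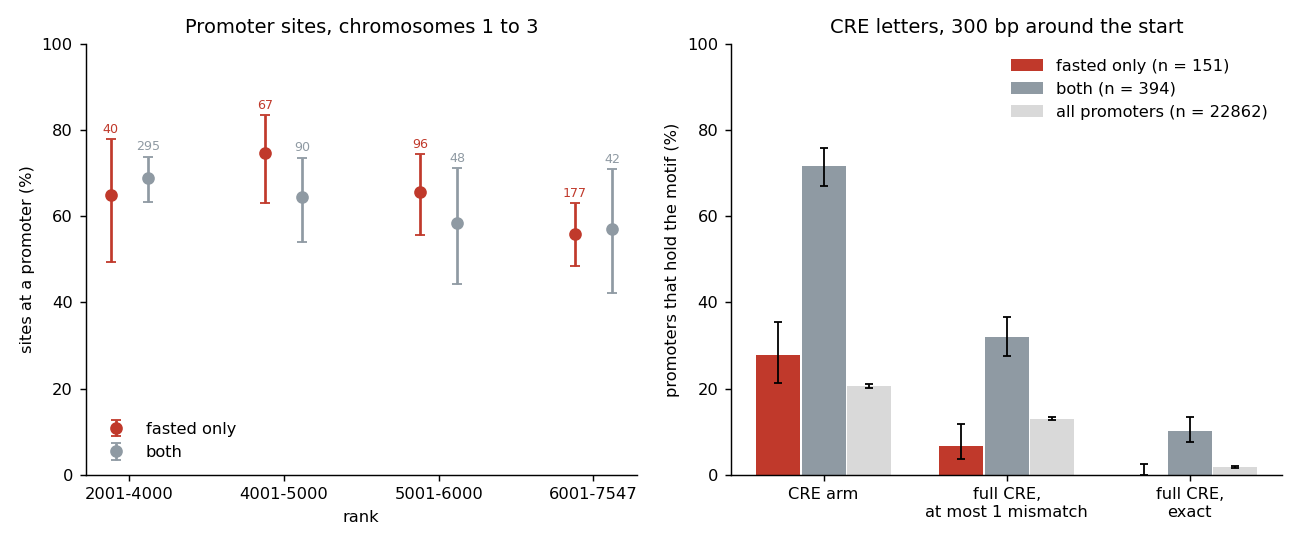
Left, the percentage of sites at a promoter on chromosomes 1 to 3 by rank, fasted-only in red and shared in grey, with 95% Wilson intervals and the number of sites above each. Right, the percentage of 300 bp promoters that hold a CRE arm, a Full CRE with at most 1 mismatch or an exact Full CRE, for 151 starts with fasted-only sites, 394 with shared sites and all 22862 promoters, where the red bar is at 27.8% against 20.6% of all promoters for the CRE arm and under the pale bar for both forms of the Full CRE.

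The plot of promoter shares by rank thus puts fasted-only and shared sites side by side at like average height, and the plot of CRE letters gives the shares of the sequences described above. Of the 397 genes on chromosomes 1 to 3 with a fasted-only site, 284 (71.5%) had no site of another kind, 90 (22.7%) also had a shared one, and 16 had more than 1 fasted-only site.

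Of the sites at genes that respond to fasting, a share close to that of all sites was fasted-only. They were 85 of 287 at induced genes, 29.6% (24.6% to 35.1%), and 103 of 323 at repressed genes, 31.9% (27.0% to 37.2%), beside 29.0% of all sites and 28.9% of sites at neither. A single member was listed for genes of both kinds. Median fasted height was 0.567 RPM in all 3 groups. Members lay above shared sites of like rank in 87.1%, 82.5% and 85.1% of cases, a lean built into their choice. Of the 77 induced genes with a fasted-only site, 39 had no site of another kind and 31 had a shared one. Of the 93 repressed genes with one, 60 had no site of another kind and 25 had a shared one. The sheets assign a site to a gene when it lies within the gene or up to 10000 bp upstream.

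A few responsive genes held several fasted-only sites. Among 9 induced genes with more than 1, Cblb, a ubiquitin ligase of receptor signaling, had 3, of 20, 19 and 24 reads, besides a shared site of 21 reads. At Pim3, a serine/threonine kinase, fasted-only sites of 34 and 35 reads flanked a shared site of 42 reads. Cebpb, a basic leucine zipper factor active in gluconeogenesis, had sites of 21 and 32 reads beside a shared site of 79 reads. At Nr2c2, an orphan nuclear receptor, both sites were fasted-only, with 25 and 20 reads. The others were Zbtb16, BC057022, Fbxo31, Baz2b and Arrdc4, whose fasted-only sites held 19 to 29 reads. Among 11 repressed genes, Cars2, a mitochondrial transfer RNA synthetase, had sites of 26 and 30 reads beside a shared site of 41 reads. Dbp, a clock-controlled transcription factor, had sites of 25 and 24 reads and none of another kind, and the same held for Ticam1 and Mesdc2. Snrpd1, Elovl6, Herpud1, Bcl3 and Pfkfb3 each had 2 as well.

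At metabolic and stress genes, too, the fasted-only sites were mostly low. The 8 gene lists held 104 genes with a site in the sheets used, and 37 of them had a fasted-only site, 16 of these with no site of another kind, beside 397 of the 1238 genes of chromosomes 1 to 3 with a site. A gene in neither list of fasting responses could enter only through the part of the sheet of all bound genes that was used, so the shares of the gene lists below rest on part of their genes, whereas the 29.0% covers all sites. Their 44 fasted-only sites ran from 0.449 to 3.21 RPM with a median of 0.590 RPM. The fasted height was above the median of shared sites of like rank at 38, equal at 2 and below at 4, again a lean built into the choice. Mt1, a metallothionein induced by glucocorticoids and metals, had 0.708 RPM, 30 reads, at chr8:97068254-97068364.

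**Figure D4:**
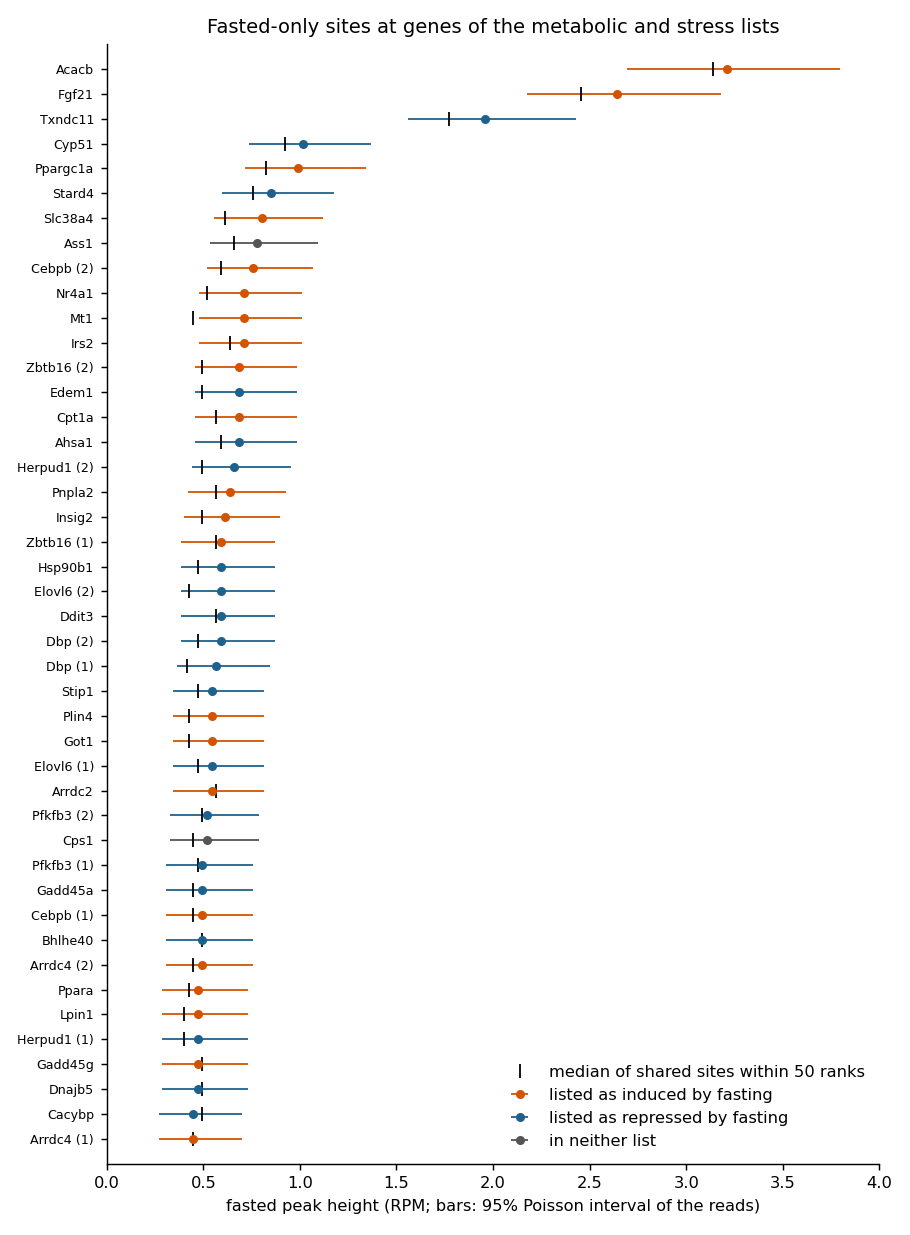
Fasted peak height (RPM) of the 44 fasted-only sites at genes of the lists, with 95% Poisson intervals of the reads, colored by whether the gene is listed as induced or repressed by fasting, and with a tick at the median of shared sites within 50 ranks. Sites of one gene are numbered from the lowest. Acacb, Fgf21 and Txndc11 stand apart at 3.21, 2.64 and 1.96 RPM, and all other sites lie at or below 1.02 RPM.

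As the plot of sites at named genes shows, 3 genes were far above the rest. Among genes of gluconeogenesis, 2 of 9 sites were fasted-only (22.2%, interval 6.32% to 54.7%), beside 29.0% of all sites. One was at Ppargc1a, the coactivator PGC-1α (chr5:51834023-51834133), with 0.991 RPM, 42 reads, above the 24 reads of the shared site of this gene. The other was at Got1, the cytosolic aspartate aminotransferase (chr19:43579489-43579599), with 23 reads. Of sites at genes of fatty acid oxidation and ketogenesis, 6 of 15 were fasted-only, 40.0%, with an interval of 19.8% to 64.3% that holds the 29.0% of all sites. Besides Fgf21 they were at Cpt1a, the carnitine acyltransferase of mitochondrial import, with 29 reads between shared sites of 34 and 53, at the lipase gene Pnpla2 with 27 reads beside a shared 72, at Ppara, the nuclear receptor of fatty acid use, with 20 beside 41, at the lipid droplet gene Plin4 with 23 beside 18, and at Lpin1, a phosphatidate phosphatase, with 20. All 6 genes are listed as induced. In amino acid transport, catabolism and the urea cycle, 3 of 12 sites were fasted-only (interval 8.89% to 53.2%), beside 29.0% of all sites. They were at the transporter gene Slc38a4 (34 reads) and at the urea cycle genes Ass1 (33) and Cps1 (22), and each gene also had a shared site.

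Genes of glycolysis and of lipid and sterol synthesis had fasted-only calls at 8 of 19 sites or 42.1% (23.1% to 63.7%), an interval that holds the 29.0% of all sites. Acacb led it. The sterol demethylase gene Cyp51 (chr5:4110747-4110857) had 43 reads, next to a shared site of 59. Stard4, a carrier of cholesterol, had 36 reads, and Insig2, which retains the sterol sensor in the endoplasmic reticulum, 26, each as the only site of its gene. The elongase gene Elovl6 had 23 and 25 reads around a shared site of 42, and Pfkfb3, which sets the level of a glycolytic activator, 22 and 21 beside a shared 26. Of these 6 genes Acacb and Insig2 are listed as induced and the other 4 as repressed.

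Sites at genes of endoplasmic reticulum stress and folding were fasted-only in 6 of 29 cases, 20.7% (9.85% to 38.4%), and at cytosolic heat shock genes in 4 of 17, 23.5% (9.56% to 47.3%), all at genes listed as repressed. Both intervals hold the 29.0% of all sites. The highest was at Txndc11, a thioredoxin-domain protein of that compartment (chr16:11057654-11057764), with 1.96 RPM or 83 reads, above the 49 reads of the shared site of the same gene. By the approximate limit from the rank, its re-fed height was at least 0.0708 RPM, and the fasted height at most 27.7 times as large. Herpud1, of the degradation machinery, had 20 and 28 reads around a shared site of 35, Edem1, of the same pathway, 29 beside an equal shared site, and Hsp90b1, the chaperone GRP94, and Ddit3, the stress factor CHOP, 25 each with no other site. The heat shock genes were Ahsa1, Stip1, Dnajb5 and Cacybp, chaperones or partners of chaperones, with 29, 23, 20 and 19 reads and no other site.

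Immediate early, stress and circadian regulators had 15 fasted-only sites among 36, 41.7%, with an interval of 27.1% to 57.8% that holds the 29.0% of all sites. Nr4a1, an orphan nuclear receptor induced by cAMP, had a single site (chr15:101094760-101094870), fasted-only, with 30 reads, 0.708 RPM against 0.519 RPM at shared sites of like rank. Irs2, an adaptor of the insulin receptor, had 30 reads beside a shared site of 37 and a re-fed-only site of 16, all in the fasted pool. Zbtb16, a zinc finger repressor, had 25 and 29 reads, and Bhlhe40, a clock repressor, 21, with a re-fed-only peak next to it. Gadd45a, a growth arrest gene, and Arrdc2, an arrestin-related gene, had 21 and 23 reads as their only sites. Gadd45g had 20 reads beside re-fed-only peaks of 15 and 17, also in the fasted pool. In the cAMP and CREB pathway itself, 0 of 10 sites, at 7 of the 19 genes of the list, were fasted-only, with an upper limit of 27.8%, beside 29.0% of all sites. All 10 were shared, at Akap11, Creb1, Crtc2, Pde4b, Prkacb, Sik1 and Sik3. The highest site of each gene stood at 0.850 RPM (Akap11) to 3.09 RPM (Sik1). Of all sites at or above 0.732 RPM, the median of the fasted list, only 9.22% were fasted-only. The 29.0% is therefore not a share at like height, and a difference was not tested.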

How the data were processed

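CREB ChIP-seq was performed on 5 fasted and 5 re-fed livers. The authors mapped reads to mm8, discarded redundant reads, pooled each group, called peaks with HOMER 3.0 (version per the labels), kept peaks found again after leaving out any 1 liver, and merged the lists. The deposited signal is the maximal height of stacked, extended reads in RPM. It is that of the fasted pool in both lists, with equal heights and intervals at all 4645 shared names. Heights are whole multiples of 0.0236 RPM, 1 read of 42363292, to within 1.99e-12 reads. The Poisson intervals treat the reads of a height as a plain count. They leave out that the height is a maximum at a chosen site, and the spread among mice. The re-fed depth was not used. The deposited lists held no per-sample column that could be left out.

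Sites were split by name. The number closing each name was taken as the rank by average of fasted and re-fed height. Coordinates are printed as deposited. Gene assignments and responses to fasting came from the study's gene sheets, where all 287, 323 and 1392 centres matched a site, and the sheet of all bound genes was used for complete chromosomes only in counts of position. Promoters are RefSeq GRCm38.p6, and of 211 genes with a fasted-only site at the start 155 had a single promoter there, older symbols included; 4 of these also carried another kind of site and were left out of the motif shares. Intervals of shares are Wilson at 95%, and those of medians, used in the alternatives, are order-statistic intervals. No test was run, since the deposited lists are pooled, and values per mouse were not used here. The members, lists and rules were chosen with earlier results of these data known.

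Genes and sites were named by rule. These were the 10 best-ranked members, the 10 with the largest excess over shared sites within 50 ranks, the 3 lowest, each gene of the 8 lists with a member, at most 10 induced and 10 repressed genes with more than 1 member, and for sequences up to 8 genes with a member at the start, by height, whose symbol has a single promoter in the table. A few genes are not reported here and were left out of the lists. Thrap3, Tsc1 and Ndufa10 were named after their values were seen. The arithmetic of the bound and of the equal-rank difference was checked on simulated heights, where no bound exceeded the simulated re-fed height. The simulated rank followed the simulated average, so this checks the code and not the reading of the real rank. The software was Python 3.11.15 with the packages scipy 1.17.1, pandas 2.3.3, numpy 2.4.6 and, for plots, matplotlib 3.10.9.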

Additional observations from a re-analysis of the deposited data

How the results depend on the processing

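Of 20 alternative values for the 10 results, 13 stayed within the interval of the value reported, or within 1.5 times a count, and 7 moved. The fasted-only share fell from 29.0% to 9.22% when only sites at or above the median height of the fasted list were kept. By the approximate limits, the percentage of members with a re-fed height above 0 was 97.4% from the rank order alone. Another site lay within 500 bp of 12.0% and within 2000 bp of 19.0% of members. The promoter share was 57.2% with a window from 500 bp upstream. Promoters with a fasted-only site held the exact Full CRE in 0% and the form with 1 mismatch in 6.62%. The number of members was 2190 by overlap, 1991 without sites that had a re-fed centre within 500 bp, and 2162 on autosomes. No paired analysis was possible because the deposited lists analysed here are pooled and the mice of the groups are separate animals. Values per mouse were not used here, so no mouse was left out in turn. Depth limits single sites, since 24 reads, the median, have a wide Poisson interval.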
